A study of Saccharomyces cerevisiae with 54 samples.

Results

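The 275 genes described here were all nuclear tRNA genes of budding yeast, chosen by their biotype in the RefSeq gene table of the S. cerevisiae R64 assembly from 6431 nuclear genes. Chromatin immunoprecipitation followed by sequencing (ChIP-seq) was used in the study to map the Hda1 histone deacetylase complex (Hda1C) and acetylated histones H3 and H4 (H3ac and H4ac). All cells were grown in rich glucose medium (YPD) at 30 °C. The 30 libraries with peak lists fell into 15 groups of 2 libraries. A first set carried a spike-in of fission yeast chromatin and a second did not. H4ac and anti-myc were measured in both sets and H3ac only in the set without spike-in. The H3ac and H4ac libraries came from the strain YSB787, labelled wild type, from YTK113, labelled hda1-/-, and from YTK202, labelled tup1-/-, called hda1∆ and tup1∆ here. The anti-myc libraries came from YTK304, labelled Untag, from YTK376, labelled Hda1-18myc, and from YTK383, labelled Hda1(arb2{delta})-18myc. The last 2 are called Hda1-myc and Hda1-myc lacking Arb2. The tagged strains carried a run of myc epitopes on Hda1, and the untagged strain carried none, so that its peaks gave the background of the antibody. Tup1, a general corepressor, works with Hda1C, and the Arb2 domain is the C-terminal domain of Hda1, apart from its N-terminal deacetylase domain. Labels did not say whether the 2 libraries of a group, or the 2 sets, came from separate cultures, so that p-values measured the spread between libraries, which may be technical. If both sets were made from the same chromatin, a strain had 2 independent samples and not 4.

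tRNA genes are transcribed by RNA polymerase III. The factor TFIIIC binds promoter boxes that lie inside the transcribed gene and places TFIIIB just upstream of the start site, and TFIIIB recruits the polymerase. Yeast tRNA genes are short, are scattered singly over all chromosomes, are transcribed strongly in growing cells and exist in families of near-identical copies. Histone acetyl groups are added by acetyltransferases and removed by deacetylases, of which Hda1C is one.

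The tRNA genes were 71 to 133 bp long with a median of 73 bp, and 53 were longer than 90 bp. Together they made up 0.182% of the nuclear genome. Each of the 16 chromosomes held 4 to 36 of them. A protein-coding gene lay within 500 bp of 213 tRNA genes and overlapped 6, whereas only 12 had another tRNA gene within 500 bp. The table gives 43 of them a symbol from which a family could be read, and the other 232 carry a systematic name only.

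The measure used throughout was coverage, the percent of the bases of a tRNA gene, or of the 500 bp on either side (the flanks), that lay under peaks deposited by the authors. A tRNA gene is far shorter than a peak, so that coverage of a single gene was 0 or 100% in most cases, and a mean over the 275 genes read close to the percent of genes under a peak. Coverage says whether a region was called, not how high the signal was. The lists without spike-in held only peaks above a stricter significance cutoff, so that coverage levels of the 2 sets are not directly comparable. Read counts were not analysed here, so that depth is unknown, and near-identical tRNA copies may share reads. A gene was counted as bound when at least 50% of it lay under peaks in both libraries of a set. A gene or its flanks counted as gaining coverage when the lower of the 2 libraries of a strain exceeded the higher one of the other strain by 10 percentage points or more, and as losing it in the reverse case.

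A pair of anti-myc libraries stood apart from their partners. In the spike-in set, replicate 2 of Hda1-myc lacking Arb2 held 59 peaks against 628 in replicate 1, and replicate 1 of the untagged strain held 235 against 10 in replicate 2. Of those 235 untagged peaks 92 lay on ribosomal protein genes and 1 on a tRNA gene. The 4 Hda1-myc libraries held 846 to 983 peaks over 6.91% to 9.95% of the genome, and the other untagged libraries held 30 and 39. H4ac peaks covered 26.2% to 34.8% and H3ac peaks 22.2% to 26.1% of the genome.

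Hda1-myc peaks lay over nearly all tRNA genes. Mean coverage of the tRNA genes was 98.1% and 98.1% in the 2 spike-in libraries and 98.2% and 98.2% in the 2 without spike-in. In the untagged strain it was 0.364% and 0% with spike-in and 0% in both libraries without, so that the groups were far from overlapping. The difference of 98.1 percentage points, the mean of 97.9 and 98.2 in the 2 sets, had an exact two-sided permutation p of 0.056 (n = 4 libraries per strain, permuted within sets), the smallest that 36 splits allow, and 0.078 after Benjamini-Hochberg adjustment over 14 tests. No comparison in these data could therefore reach 0.05. Protein-coding genes had 7.94% to 11.1% coverage in the same 4 libraries.

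The same 270 of 275 tRNA genes were under a peak in all 4 Hda1-myc libraries, and all 270 were bound in both sets. By the same rule 13.9% of all nuclear genes were bound in the spike-in set and 12.5% in the set without. Against the untagged strain, 269 tRNA genes gained coverage in the spike-in set and 270 in the set without, where 17.2% and 14.9% of all nuclear genes did. The gene that made the difference was SUF1, the only tRNA gene under a peak in any untagged library (100% in spike-in replicate 1). Among the other gene classes, 136 of 137 ribosomal protein genes and 73 to 75 of 76 snoRNA genes were bound, against 8.53% and 7.15% of protein-coding genes. tRNA genes thus made up 30.2% and 33.5% of all bound genes.

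The peaks were narrow and centred on the tRNA genes. The median distance of the peak summit from the middle of the gene, signed along the direction of transcription, was −15.5, −16.75, −17.75 and −16.5 bp in the 4 Hda1-myc libraries. The summit lay within 100 bp of the middle for 259, 261, 267 and 267 of the 270 genes. Peaks on tRNA genes had median lengths of 752, 737, 589.5 and 560 bp, against 1001.5 to 1027.5 bp for peaks elsewhere. Between 261 and 262 peaks of each library touched a tRNA gene, 26.6% to 31.0% of its peaks. In the spike-in set 98.2% of tRNA genes were covered at their 5′ end, 79.5% at 300 bp upstream and 6.73% at 500 bp upstream. In the set without spike-in the corresponding values were 98.2%, 12.1% at 300 bp upstream and 97.2% at 200 bp upstream, so that peaks were shorter there. The lists of that set also held to a stricter cutoff.

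**Figure D1:**
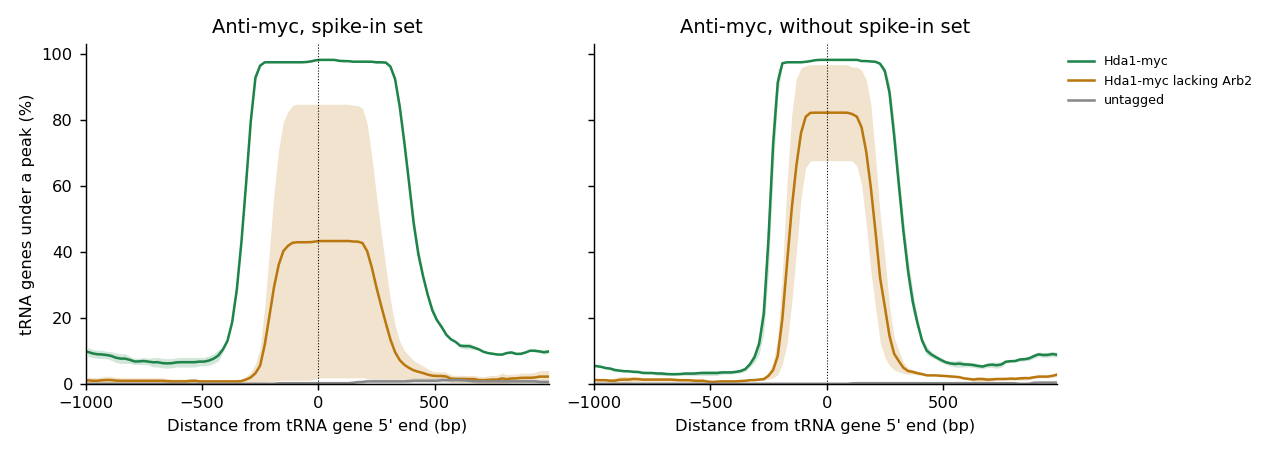
Share of the 275 tRNA genes under an anti-myc peak (y axis, %) against the distance from the 5′ end of the gene in the direction of transcription (x axis, bp). Lines are means and shading the range of the 2 libraries. Hda1-myc formed a plateau at 98.2% over the gene in both sets, Hda1-myc lacking Arb2 reached means of 43.3% and 82.2%, and the untagged strain stayed near 0.

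Within each library, peaks were also ranked by the fold enrichment that the authors' peak caller gave, since heights could not be compared between libraries. The median tRNA gene had a peak at the 82.7, 80.7, 80.0 and 80.3 percentile of its library. Of the 100 peaks with the highest fold in each library, 70, 67, 62 and 64 touched a tRNA gene and 11 to 17 a ribosomal protein gene. The highest mean percentile, 99.0, belonged to YNCG0028W and YNCG0029C on chromosome VII, which lie 196 bp apart under 1 peak (positions 700199 to 701395 in spike-in replicate 1, fold 5.28). YNCB0004W and YNCB0005C on chromosome II, 61 bp apart, also shared a peak (positions 197185 to 198086, fold 4.76, mean percentile 98.2). The single gene YNCL0033C on chromosome XII, 325 bp from BNA5, followed with 98.1 (positions 604964 to 605754, fold 4.65). The top of the ranking thus held both adjacent pairs that share a peak and a gene that stands alone.

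A total of 5 tRNA genes had no Hda1-myc peak over the gene or its flanks in any of the 4 libraries. They were SUP53, YNCC0008W and YNCC0009C on chromosome III, YNCL0009C on chromosome XII and YNCN0008C on chromosome XIV. On the other 13 chromosomes every tRNA gene was covered. SUP53, a leucine tRNA gene 351 bp from LEU2, had H3ac over 29.9% and 30.6% of its flanks in wild type and over 0% in all 4 libraries of hda1∆ and tup1∆. YNCC0008W had no acetylation peak in its flanks in any library. YNCN0008C differed from both, with H4ac over 50.6% to 100% and H3ac over 41.9% to 50% of its flanks in all libraries. The 5 genes thus did not share an acetylation pattern.

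Other genes that RNA polymerase III transcribes were also under Hda1-myc peaks. Coverage was 100% in all 4 libraries for SCR1, the RNA of the signal recognition particle, for SNR6, the U6 spliceosomal RNA, for RPR1, the RNA of RNase P, for SNR52, a snoRNA, and for the 5S rRNA genes RDN5-1, RDN5-5 and RDN5-6. It was 0% for RDN5-3 and RNA170. Of the 11 genes of this list, 9 were bound in the spike-in set and 8 in the set without, where 13.9% and 12.5% of all nuclear genes were. Unlike tRNA genes, 2 of them were also bound in the untagged strain without spike-in (0.591% of all nuclear genes). SCR1 had coverage of 60% and 61.9% there, and RDN5-1 of 100% in both libraries. Of 27 genes that encode the polymerase III machinery itself, 3 and 1 were bound in Hda1-myc, below the 13.9% and 12.5% of all nuclear genes.

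The comparison of Hda1-myc with Hda1-myc lacking Arb2 asked how far coverage at tRNA genes differed without the Arb2 domain. The paper reports that Hda1 protein was itself somewhat lower without this domain, and the part of protein level in the coverage was not tested. Coverage of the genes in the strain lacking Arb2 was 84.7% and 1.82% with spike-in and 96.7% and 67.6% without, all below the 98.1% to 98.2% of Hda1-myc. The mean difference was −35.42 points (−54.8 with and −16.0 without spike-in, exact permutation p 0.056, adjusted 0.078, n = 4 libraries per strain). Most of the spread came from the spike-in replicate with 59 peaks. With each library left out in turn, the difference ranged from −56.2 to −14.7 points. Compared with the untagged strain, Hda1-myc lacking Arb2 was 62.63 points higher on the genes (43.1 and 82.2 in the 2 sets, exact permutation p 0.056), and 4 and 186 tRNA genes gained coverage over it, against 0.42% and 6.42% of all nuclear genes. Without the library with 59 peaks the count with spike-in was 232, and without replicate 2 of the set without spike-in it was 266. In the flanks it was 22.1 points higher (18.1 and 26.1), with 3 and 186 flanks gaining, against 0.327% and 9.98%.

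Flanks showed the same order. Mean flank coverage was 67.7% and 66.7% with spike-in and 52.6% and 49.7% without in Hda1-myc. In the strain lacking Arb2 it was 36% and 1.02% with spike-in and 33.9% and 18.4% without. The difference was −36.85 points (−48.7 and −25.0, exact permutation p 0.056), and the flanks of 262 and 224 tRNA genes lost coverage, where 21.6% and 15.9% of all nuclear genes did. The 220 genes in both lists were 84.0% of the first and 98.2% of the second. Coverage of the gene itself was lost in both libraries by 37 and 4 tRNA genes (13.5% and 1.45%), against 10.2% and 7.37% of all nuclear genes. With spike-in, this count rests on replicate 1, since replicate 2 covered 5 of the 270 genes. No tRNA gene or flank gained coverage, against at most 0.0155% and 0.0311% of all nuclear genes for genes and flanks. Median peak lengths on tRNA genes were 486, 672.5, 418 and 326 bp in the strain lacking Arb2, the second value from the 5 genes of the library with 59 peaks. The 4 genes that lost coverage without spike-in were YNCI0003C, YNCL0038W, TRR4 and YNCN0006W. Without replicate 1 of the strain lacking Arb2, the counts became 265 in the spike-in set and 84 in the set without. At equal covered length in the tagged libraries, spike-in lists were too short for a comparison, since Hda1-myc itself then covered 8 and 9 tRNA genes. Without spike-in, Hda1-myc then covered 185 and 213 tRNA genes and the strain lacking Arb2 251 and 186, so that the groups overlapped.

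Gene by gene, 233, 5, 266 and 186 of the 270 tRNA genes bound in Hda1-myc remained at least 50% covered in the libraries lacking Arb2 (spike-in 1 and 2, without spike-in 1 and 2). These were 86.3%, 1.85%, 98.5% and 68.9% of the bound tRNA genes. Among 136 bound ribosomal protein genes the shares were 97.8%, 8.09%, 96.3% and 52.2%, and among 262 other bound protein-coding genes they were 52.3%, 6.49%, 43.9% and 26.3%. By this measure tRNA genes lay above other protein-coding genes in 3 of 4 libraries and below them in the library with 59 peaks. A short gene under a summit stays fully covered by a shortened peak, whereas a long gene can fall below 50%. The classes are therefore not directly comparable, and the effect of gene length was not tested. In untagged spike-in replicate 1, 74 of the ribosomal protein genes but 1 of the tRNA genes were covered. By the rule of both libraries, 5 tRNA genes were bound with spike-in (0.98% of all nuclear genes) and 186 without (5.89% of all nuclear genes), and 233 were covered with spike-in when the library with 59 peaks was left out.

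**Figure D2:**
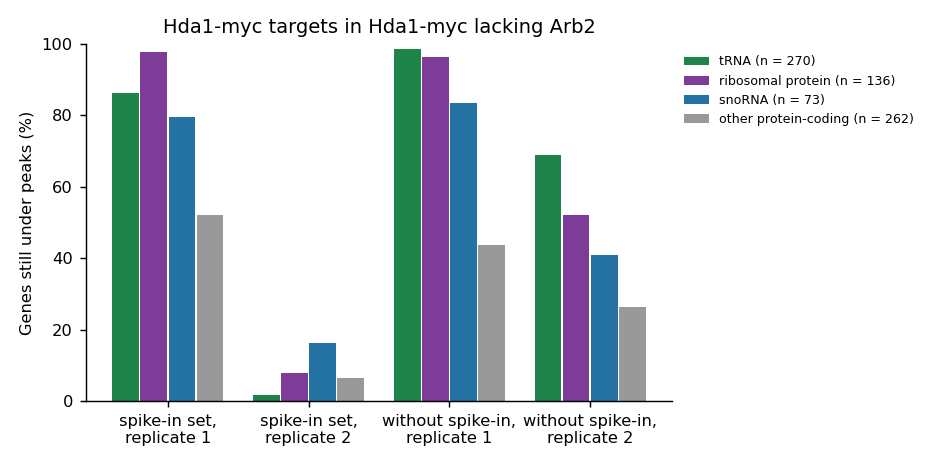
Percent of genes bound in all 4 Hda1-myc libraries that were still at least 50% covered in each library of Hda1-myc lacking Arb2 (y axis), by gene class (colours). For tRNA genes the bars stand at 86.3%, 1.85%, 98.5% and 68.9%, and the second library, which held 59 peaks, is low in every class.

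The 232 genes covered in both spike-in replicate 1 and replicate 1 without spike-in were 99.6% and 87.2% of their lists, of which the second already held 266 of the 270 genes. The 175 shared by spike-in replicate 1 and replicate 2 without spike-in were 75.1% and 94.1% of theirs, beside the 68.9% and 86.3% of all bound tRNA genes that the other library covered. By the number of libraries that covered them, 3 genes were covered in none of the 4, 24 in 1, 68 in 2, 170 in 3 and 5 in all 4. The median percentile of the Hda1-myc peak by fold was 59.3, 69.3, 73.7, 85.6 and 97.9 for these groups, so that the median rank in Hda1-myc was higher the more libraries covered a gene. The 5 genes in all 4 libraries were YNCE0005W and YNCE0010W on chromosome V, the pair YNCG0028W and YNCG0029C on chromosome VII and SUF1 on chromosome XV. The 3 genes in none were YNCL0038W and TRR4 on chromosome XII and YNCN0006W on chromosome XIV.

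By family, all 8 tyrosine tRNA genes, all 5 EMT genes, which encode the elongator methionine tRNA, and all 3 serine genes were covered in every library lacking Arb2 but the one with 59 peaks. Of the 4 IMT genes, which encode the initiator methionine tRNA, 2, 0, 4 and 1 were covered in the 4 libraries. Of the 15 SUF genes, found as frameshift suppressors, 14, 1, 15 and 11 were covered. Among the genes with symbols, 5 are the only copies for their anticodons, and they differed among themselves. SUP61 (serine) and CDC65 (glutamine) were covered in 3 libraries, TRT2 (threonine) in both without spike-in, HSX1 (arginine) in 1, and TRR4 (arginine) in none, although all 5 had 100% coverage in the Hda1-myc libraries.

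Acetylation peaks lay beside tRNA genes rather than on them. No H3ac or H4ac peak that overlapped a tRNA gene had its summit within 100 bp of the middle of that gene in any library. In wild type, H4ac peaks covered 22.4% and 23.1% of the genes with spike-in and 7.66% and 6.20% without, and 40.1% and 41.3% of the flanks with spike-in and 32.1% and 31.4% without. H3ac covered 5.85% and 4.0% of the genes and 30.0% and 26.5% of the flanks. Along the gene, the share of tRNA genes under an H4ac peak in wild type went from a maximum of 61.4% at 760 bp upstream to 22.5% at the gene's 5′ end with spike-in, and from 55.9% at 820 bp upstream to 6.73% without. For H3ac it went from 48.2% at 640 bp upstream to 4.91%. The flanks of 50 and 67 tRNA genes held no H4ac peak in either wild-type library of the 2 sets, and those of 78 held no H3ac peak.

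**Figure D3:**
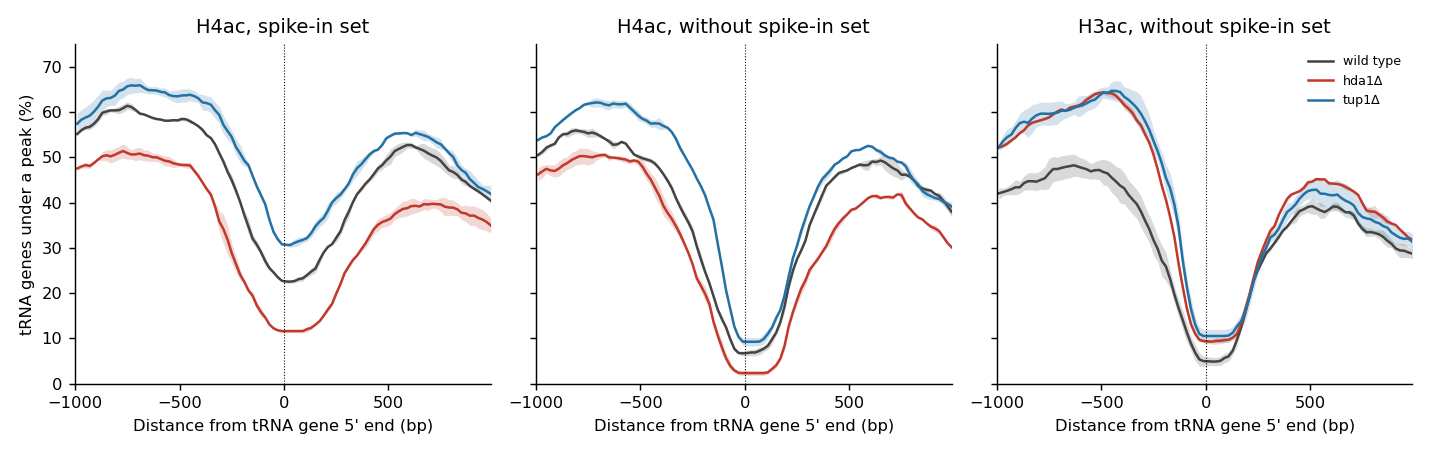
Share of the 275 tRNA genes under an H4ac or H3ac peak (y axis, %) against the distance from the 5′ end of the gene in the direction of transcription (x axis, bp). Lines are means and shading the range of the 2 libraries, and every curve has its lowest point within 20 bp of the 5′ end, between 2.36% and 30.6%.

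In hda1∆, H4ac peaks covered less of the tRNA genes and of their flanks than in wild type. Coverage of the genes was 11.3% and 12% with spike-in and 2.91% and 1.82% without, all below the wild-type libraries of the same set. Flank coverage was 27% and 28.6% with spike-in and 25.1% and 23.4% without, again below every wild-type library. The differences were −7.83 points for the genes (−11.1 and −4.57 in the 2 sets) and −10.2 for the flanks (−12.9 and −7.51), each with an exact permutation p of 0.056 and an adjusted p of 0.078 (n = 4 libraries per strain). H4ac peaks of hda1∆ also covered less of the whole genome, 28.4% and 29.1% against 32.1% and 32.9% with spike-in and 26.6% and 26.2% against 30.3% and 30.2% without. With the difference at protein-coding genes subtracted, the difference at the flanks of tRNA genes was −4.05 points (−6.95 and −1.14, exact permutation p 0.056, adjusted 0.111). For the genes themselves the value was −4.13 (exact permutation p 0.11, adjusted 0.173), and the groups overlapped in the set without spike-in. The methods describe spike-in scaling for enrichment ratios and do not say that it entered the peak lists. In the scaled signal, the paper reports H4 acetylation that rose strongly in hda1∆ within more active genes. Coverage does not measure that signal, and a lower coverage is not a measured loss of acetylation.

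Flank coverage was lost at many tRNA genes and gained at few. The flanks of 64 tRNA genes (23.3%) lost H4ac with spike-in, where 13.5% of all nuclear genes did, and those of 55 (20%) without, where 15.4% of all nuclear genes did. The 26 genes in both lists were 40.6% and 47.3% of them. No tRNA gene gained flank H4ac with spike-in, against 3.25% of all nuclear genes. Without spike-in 3 genes did, YNCD0021C, YNCG0011W and YNCG0042C, against 2.69%. The mean difference was below 0 for 181 and 176 of the 275 genes, above 0 for 19 and 36, and exactly 0 for 75 and 63. Its median was −5.35 and −4.05 points, beside 0 and −0.75 over all nuclear genes. The shares of all nuclear genes with each sign were not computed. On the gene itself 22 and 10 tRNA genes (8.0% and 3.64%) lost H4ac, against 10.5% and 11.5% of all nuclear genes. These shares of all 275 genes lay below the background, but most tRNA genes had no H4ac peak to lose in wild type. By the coverage threshold used for bound genes, 57 and 17 tRNA genes were covered in both wild-type libraries. Of these, 22 and 10 were covered in neither hda1∆ library. The like counts over all nuclear genes were not computed, so that an excess at tRNA genes cannot be read from these. The mean difference on the gene was −11.1 and −4.57 points for tRNA genes, beside −3.92 and −3.44 over all nuclear genes. No tRNA gene was in both lists of losses. None gained H4ac on the gene, against 4.09% and 4.28%.

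SUP4, a tyrosine tRNA gene on chromosome X known for its suppressor alleles, had the most negative H4ac difference by the mean of both sets. H4ac covered 100% of the gene with its flanks in both wild-type libraries with spike-in (peak at positions 542379 to 546121 in replicate 1), 16.0% and 12.2% in hda1∆ and 100% in both tup1∆ libraries. Without spike-in it covered 58.8% and 54.0% in wild type, 20.6% and 29.8% without HDA1 and 68.8% and 59.9% without TUP1. YNCE0029C on chromosome V went from 100% in both wild-type libraries with spike-in to 4.56% and 0% in hda1∆, and from 53.2% and 51.4% to 31.8% and 38.7% without. YNCO0005W, YNCO0018W and YNCF0014C, the next by size, had mean differences of −55.7, −55.1 and −47.2 points, and also 100% coverage in wild type with spike-in. All 5 lay entirely under H4ac peaks in wild type with spike-in and at most in part in hda1∆. Their choice by this difference favours such a pattern. In the other direction, YNCG0042C had 30.6% and 30.3% in wild type and 33.2% and 36.6% in hda1∆ with spike-in, and 4.7% and 16.0% against 34.2% and 33.8% without. YNCL0033C, with the highest Hda1-myc rank of any tRNA gene that stood alone under its peak, followed with a mean difference of 12 points. YNCD0009W, YNCG0025C and YNCN0003W had 6.58, 5.75 and 3.79 points.

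In tup1∆ the same measures lay on the other side of wild type, with the same wild-type libraries as controls. H4ac covered 31.5% and 30.3% of the tRNA genes with spike-in and 8.36% and 10.2% without, and 48.3% and 48.5% of the flanks with spike-in and 38.8% and 39.0% without, all above the wild-type libraries of the same set. The differences were 5.26 points for the genes (8.17 and 2.35) and 7.41 for the flanks (7.67 and 7.15), each with an exact permutation p of 0.056 (adjusted 0.078, n = 4 libraries per strain). With the difference at protein-coding genes subtracted, the flanks stayed 4.85 points higher (4.88 and 4.82, exact permutation p 0.056, adjusted 0.111). For the genes the value was 3.90 (exact permutation p 0.11) and turned to −1.44 when only protein-coding genes of up to 500 bp were used. The flanks of 41 and 53 tRNA genes (14.9% and 19.3%) gained H4ac, where 10.6% and 10.5% of all nuclear genes did, and 20 genes were in both lists (48.8% and 37.7%). Those of 7 and 7 lost it, against 5.15% and 4.57%, and 3 were in both lists. On the gene itself 17 and 5 tRNA genes gained H4ac, against 7.63% and 8.04% of all nuclear genes, and 2 and 0 lost it, against 5.19% and 5.02%, the 2 being YNCE0029C and HSX1.

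**Figure D4:**
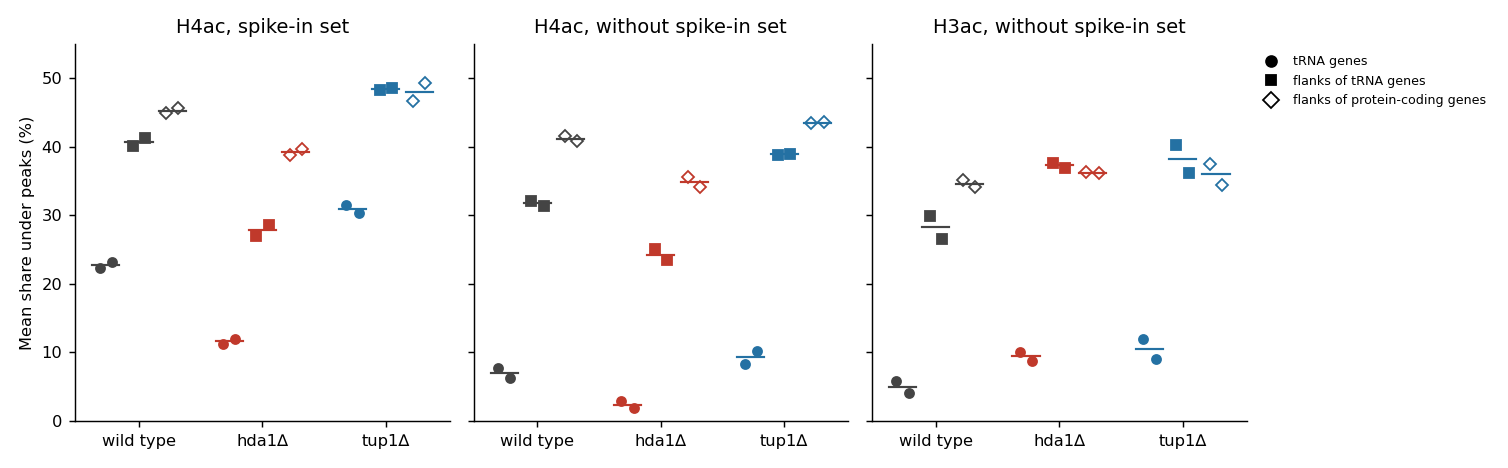
Mean coverage (y axis, %) of tRNA genes (circles), of tRNA gene flanks (squares) and of protein-coding gene flanks (open diamonds) under H4ac and H3ac peaks. Each point is 1 library and each bar the mean of 2. For H4ac, hda1∆ lies below and tup1∆ above every wild-type library in tRNA genes and flanks of both sets. The flanks of protein-coding genes have the same order.

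EMT5, an elongator methionine tRNA gene on chromosome X, had the largest H4ac difference in tup1∆. H4ac covered 0% of the gene with its flanks in both wild-type libraries with spike-in and 94.8% and 96.7% in tup1∆ (peak at positions 390559 to 391575 in replicate 1). Without spike-in it covered 32.8% and 26.1% in wild type and 54.6% and 56.0% in tup1∆. YNCN0009W on chromosome XIV went from 29.7% and 30.7% to 100% in both libraries with spike-in, and from 28.3% and 31.2% to 74.7% and 72.1% without. YNCO0029C on chromosome XV followed with a mean difference of 51.9 points. SUF9 on chromosome VI went the other way, from 36.5% and 37.4% in wild type to 0% in both tup1∆ libraries with spike-in, and from 34.4% and 30.8% to 0% in both without. YNCP0008C and YNCG0003C had −28.9 and −26.7 points. Single tRNA genes thus went against the direction of the mean.

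**Figure D5:**
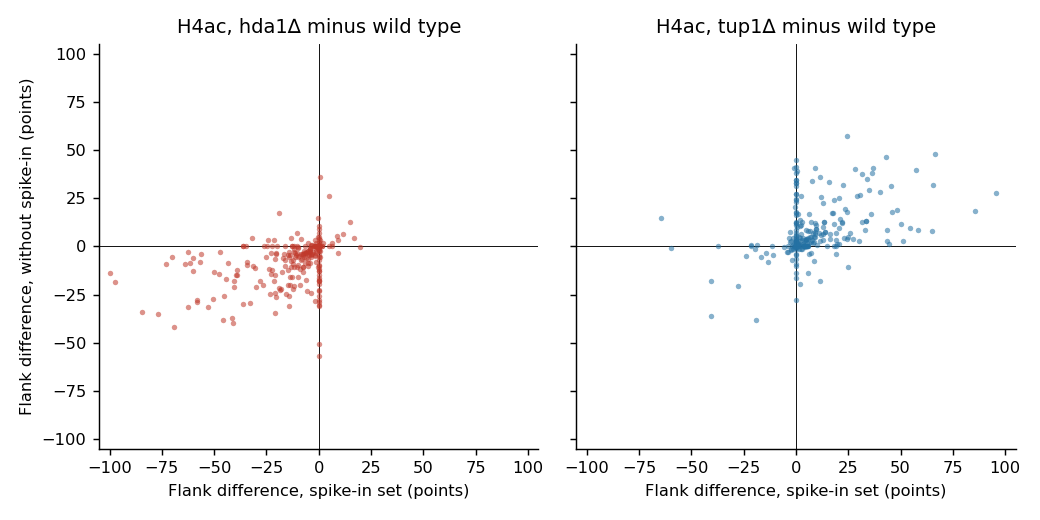
Difference in H4ac flank coverage from wild type, in percentage points, for each of the 275 tRNA genes in the spike-in set (x axis) and in the set without spike-in (y axis), for hda1∆ (left) and tup1∆ (right). Each point is 1 gene and the difference of 2-library means. In hda1∆ 181 and 176 genes lie below 0, and in tup1∆ 152 and 179 lie above 0. Many genes lie on an axis because their coverage moved in 1 set only.

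H3ac, measured only without spike-in, lay higher in both mutants. The genes had 10% and 8.76% coverage in the hda1∆ libraries and 12% and 9.09% in those of tup1∆, above the 5.85% and 4.0% of wild type. Flanks had 37.7% and 36.9% in the hda1∆ libraries and 40.3% and 36.1% in those of tup1∆, above the 30.0% and 26.5% of wild type. The differences in flanks were 9.06 points for hda1∆ and 9.94 for tup1∆, and those in genes 4.48 and 5.62. With 2 libraries against 2 the exact permutation p was 0.33 for each, the smallest that 6 splits allow. H3ac peaks covered 26.0% and 26.1% of the genome in hda1∆ and 26.0% and 23.8% in tup1∆, against 22.6% and 22.2% in wild type. With protein-coding genes subtracted, the flanks were 7.46 and 8.60 points higher in hda1∆ and tup1∆, and the groups did not overlap, whereas the genes in hda1∆ had −0.32 points with overlapping groups. That last value turned to 4.45 when peaks were taken to equal covered length.

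The flanks of 71 tRNA genes (25.8%) gained H3ac in hda1∆ and those of 70 (25.5%) in tup1∆, where 10.6% and 11.7% of all nuclear genes did. Flanks of 5 lost it in hda1∆ (5.61% of all nuclear genes), namely SUP53, YNCB0001W, YNCD0026W, YNCG0028W and YNCN0015W, and of 7 in tup1∆ (6.89%). With 1 library left out, these losses numbered between 10 and 19 in hda1∆ and between 8 and 21 in tup1∆. On the gene itself 11 and 12 tRNA genes (4.0% and 4.36%) gained H3ac, against 10.8% and 9.95% of all nuclear genes. H3ac was lost there by 0 and 1 (2.6% and 4.77% of all nuclear genes), the 1 being YNCG0002C. Longer genes can pass the margin by a change in part of their length, whereas tRNA genes mostly had 0 or 100%. The mean difference on the tRNA genes was 4.48 and 5.62 points, beside 4.60 and 2.78 over all nuclear genes. Flank differences were above 0 at 156 tRNA genes in hda1∆ and at 165 in tup1∆, and below 0 at 69 and 65. The median difference was 3.05 points in hda1∆ and 4.5 in tup1∆, beside 0 over all nuclear genes in both. For H3ac too, the shares of all nuclear genes with each sign were not computed. YNCD0021C on chromosome IV had no H3ac over the gene and its flanks in either wild-type library. It had 100% in both hda1∆ libraries (peak at positions 1016433 to 1020326 in replicate 1) and 100% and 73.0% in tup1∆. SUF4 on chromosome VII likewise went from 0% in both wild-type libraries to 76.2% and 75.3% without HDA1, and it had 73.7% and 77.2% without TUP1. YNCE0012W on chromosome V had 38.4% and 38.1% in wild type and 100% in all 4 mutant libraries. YNCN0015W had 40.1% and 42.0% in wild type and 10.1% and 8.75% in hda1∆. The most negative value in tup1∆, −41.3 points, belonged to YNCD0022C, whose wild-type libraries disagreed (65.9% and 100%).

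H3ac differences lay mainly upstream of tRNA genes. The 500 bp before the 5′ end had H3ac coverage of 31.8% and 26.3% in wild type. In the hda1∆ libraries it was 43.8% and 42.9%, and in those of tup1∆ 48.9% and 43.9%. The 500 bp after the 3′ end had 28.2% and 26.7% in wild type, 31.6% and 30.9% in the hda1∆ libraries, and 31.6% and 28.3% in those of tup1∆. The mean differences were thus 14.3 and 17.4 points upstream and 3.81 and 2.51 downstream in hda1∆ and tup1∆. The upstream side alone gained H3ac at 72 and 82 tRNA genes (26.2% and 29.8%), where 8.23% and 10.4% of all nuclear genes did. The downstream side alone gained it at 35 and 30 (12.7% and 10.9%), where 8.54% and 7.32% did. Protein-coding genes had upstream differences of 0.13 and 1.46 points and ribosomal protein genes of −15.0 and −9.68. For H4ac in hda1∆, tRNA genes had −12.9 and −5.61 points upstream and −13.0 and −9.42 downstream in the 2 sets. Protein-coding genes had −8.93 and −8.62 points upstream and −3.07 and −4.11 downstream, so that without spike-in the upstream difference was smaller in size at tRNA genes than at protein-coding genes. H4ac in tup1∆ had 9.01 and 11.1 points upstream and 6.33 and 3.17 downstream of tRNA genes, against 4.55 and 3.64 upstream and 1.04 and 1.02 downstream of protein-coding genes. The difference between sides was not tested.

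In hda1∆ the 2 marks thus lay on opposite sides of wild type around tRNA genes, as means over all 275. Flank means over all nuclear genes also did, with 1.88 points for H3ac and −6.03 and −6.25 for H4ac in the 2 sets. Of the 71 tRNA genes whose flanks gained H3ac, 21 (29.6%) were among the 64 that lost H4ac with spike-in (32.8% of those), and 11 (15.5%) among the 55 without spike-in (20% of those), beside the 23.3% and 20% of all tRNA genes that lost H4ac. In tup1∆ both marks lay above wild type, and of the 70 genes that gained H3ac, 23 (32.9%) were among the 41 that gained H4ac with spike-in (56.1% of those) and 31 (44.3%) among the 53 without (58.5% of those), beside 14.9% and 19.3% of all tRNA genes.

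The direction of the flank differences was shared by nearly all chromosomes. The mean H4ac difference in hda1∆ was below 0 on 16 of 16 chromosomes in both sets, from −23.8 and −19.1 points on chromosome VI to −2.8 on chromosome I with spike-in and −1.56 on chromosome III without. In tup1∆ it was above 0 on 15 of 16 chromosomes in both sets, with chromosome IX at −4.69 and −0.085 points. The mean H3ac difference was above 0 on 15 of 16 chromosomes in each mutant, with chromosome III at −4.84 points in hda1∆ and −1.81 in tup1∆. Flank means over all nuclear genes had the same signs. They were −6.03 and −6.25 points for H4ac in hda1∆ and 3.09 and 2.59 in tup1∆, and 1.88 and 1.70 for H3ac. The 62 tRNA genes with no protein-coding gene within 500 bp had H4ac flank differences of −8.6 and −1.8 points in hda1∆, against −14.2 and −9.2 for the other 213. In tup1∆ they had 12.5 and 10.2 points against 6.3 and 6.3. By family, the 8 tyrosine genes had −31.1 and −9.8 points in hda1∆, the 4 IMT genes −16.4 and −27.1, and the 5 EMT genes −1.7 and −3.3. Differences between these groups of tRNA genes were not tested.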

How the data were processed

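Per the labels and the study's methods, the authors aligned ChIP-seq reads with Bowtie2 2.2.5 and handled them with Picard 2.6 and bedtools 2.26.0. They called peaks per library with MACS2 2.1.0, with a q-value cutoff of 0.05 in the methods. The lowest −log10 q of any peak was 1.32 in the spike-in set and 2.01 in the set without. The deposited lists without spike-in thus held to a stricter cutoff than those with it. Libraries were made from sonicated, crosslinked chromatin with an Accel-NGS 2S kit. The deposited lists give each peak's position, a score, a fold enrichment (a ratio over background), a −log10 p-value, a −log10 q-value and the summit. Positions, summits, the fold (ranked within a library) and −log10 q (for stricter lists) were used here. The score and the −log10 p-value, as deposited, served no purpose here. MACS2 scales libraries by depth, and a deeper library can yield more and longer peaks. Depth is unknown, since no read counts were used, and input and total H3 libraries were not analysed here. Labels name the build R64 (sacCer3) and the methods an earlier one. Hda1-myc summits lay at a median of −13.75 to 12.25 bp from the middle of tRNA genes on each chromosome, so that the gene table was used as it stands.

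Coverage of each gene and of 500 bp on either side was computed per library (Python 3.11.15, numpy 2.4.6, pandas 2.3.3, scipy 1.17.1) and the code was tested on simulated peak lists. Strand was taken from the ending of systematic names. Group differences were averaged over sets and tested by exact two-sided permutation of libraries within sets, with Benjamini-Hochberg adjustment over 14 tests (7 comparisons, genes and flanks). The differences of tRNA from protein-coding genes were adjusted as a second family of the same size. The tRNA genes and all gene lists were chosen with earlier results of these data known. Named genes were the 5 with the highest Hda1-myc fold percentile, and, among genes whose libraries did not overlap (for H4ac, in both sets with the same sign), the 5 (H4ac in hda1∆) or 3 (other comparisons) with the largest and the smallest difference over the gene plus flanks. SUP53, YNCG0031W and YNCG0002C also met this rule for H3ac, with −27.2, −22.2 and −29.2 points. Genes in counts of 5 or fewer were named after their values were seen. The gene table gives no anticodon or amino acid, so that families were read from gene symbols, and rules on single-copy anticodons and on the threonine gene beside HMR could not be applied as planned. Alternatives were a stricter q-value, equal covered length, other margins, flank widths and overlaps, shifted coordinates, leaving out chromosome XI, short protein-coding genes, a replicate block and leaving out each library.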

Additional observations from a re-analysis of the deposited data

Results flagged for a closer look

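Around tRNA genes, H4ac coverage in hda1∆ lay below and in tup1∆ above every wild-type library of the same set. The mean of tup1∆ minus that of hda1∆ was 19.3 points on the genes with spike-in and 6.92 without. In the flanks it was 20.6 and 14.7 points, in the 500 bp upstream 21.9 and 16.7 points, and in the 500 bp downstream 19.3 and 12.6 points. In hda1∆ without spike-in, H3ac around tRNA genes lay above and H4ac below every wild-type library. The H3ac difference minus the H4ac difference was 9.04 points on the genes, 16.6 in the flanks, 19.9 upstream and 13.2 downstream. Over all nuclear genes, the mean H3ac and H4ac differences of that set were 4.60 and −3.44 points on the genes. They were 1.88 and −6.25 in the flanks, 0.662 and −8.27 upstream, and 3.10 and −4.21 downstream. The opposite signs were thus not particular to tRNA genes. Neither the difference between the mutants nor that between the marks was tested, and the mutants share their wild-type libraries.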

How the results depend on the processing

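Of the alternatives to mean differences, 3 reversed the direction and 239 did not, and no p-value could pass the threshold. A difference of 0 would count among the 239. They include the anti-myc lists cut to the shortest untagged list, where too little sequence remained for a comparison. They also include the pairing by replicate number, which could not reverse a mean difference. The Hda1-myc flank difference of 58.95 points was 94.5 for 250 bp and 32.9 for 1000 bp. Of the differences relative to protein-coding genes, H4ac on the genes in tup1∆ turned from 3.90 to −1.44 points and H3ac in tup1∆ from 2.91 to −0.857 with short protein-coding genes only, and H3ac in hda1∆ from −0.32 to 4.45 at equal covered length.

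Acetylation counts moved with the margin. For H4ac flanks in hda1∆ (spike-in, then without), losses of 64 and 55 became 133 and 133 at a margin of 1 point and 35 and 17 at 25 points, and gains of 0 and 3 became 8 and 15 at 1 point, with 1 left without spike-in at 25 points. For tup1∆, gains of 41 and 53 became 92 and 119, or 25 and 26, and losses of 7 and 7 became 14 and 14, or 4 and 2. For H3ac, gains of 71 in hda1∆ became 111 or 33 and gains of 70 in tup1∆ became 37 at 25 points, and losses of 5 and 7 became 25 and 26, or 2 and 2. At equal covered length, H4ac gains in hda1∆ were 5 and 15, H4ac gains in tup1∆ without spike-in 31, and H3ac losses 15 and 15. Taken to the length of the shortest untagged list (9626 bp with and 40928 bp without spike-in), too little sequence remained for a comparison, and the anti-myc gains of Hda1-myc were 0 and 0, the losses without Arb2 0 and 0, and the gains of Hda1-myc lacking Arb2 over the untagged strain 0 and 2. Alternatives chosen after seeing the data were equal covered length in the tagged strains, with losses of 3 (void, as Hda1-myc itself then covered 8 and 9 tRNA genes) and 1 in place of 37 and 4, and single sides. The 5′ side alone gave 2 and 6 H4ac gains in hda1∆, 3 H4ac losses in tup1∆ without spike-in and 2 H3ac losses in tup1∆. The 3′ side alone gave 1 and 1 H4ac gains in hda1∆, 20 H4ac gains in tup1∆ without spike-in, 35 and 30 H3ac gains and 8 and 16 H3ac losses in hda1∆ and tup1∆.

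Leaving out each library, tRNA genes bound in Hda1-myc lacking Arb2 ranged from 5 to 233 with spike-in and from 186 to 266 without, losses against Hda1-myc from 37 to 265 and from 4 to 84, and gains over the untagged strain from 4 to 232 and from 186 to 266. Bound genes in the untagged strain with spike-in ranged from 0 to 1. H4ac gains in hda1∆ ranged from 1 to 4 and from 3 to 9 and losses from 77 to 88 and from 66 to 72. H4ac gains in tup1∆ ranged from 50 to 61 and from 61 to 70 and losses from 9 to 12 and from 8 to 11. H3ac gains ranged from 77 to 102 and from 73 to 101 and losses from 10 to 19 and from 8 to 21 in hda1∆ and tup1∆.

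The labels number replicates but do not pair them, and the correlation of deviations between same-numbered libraries was −0.025 to 0.068, apart from 0.387 for Hda1-myc lacking Arb2 and untagged with spike-in. Pairing by number cannot change a mean difference when groups are equal in size, so that the unchanged values tell nothing. The exact sign-flip p was 0.125 at best (0.5 for H3ac). Of the counts, pairing moved only H4ac gains in hda1∆ by over 1.5 times, to 1 with spike-in and 5 without. Leaving out genes beside Ty elements was not run. Short genes and called peaks limit these data to presence or absence of a peak.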
